A study of Mus musculus with 12 samples.

Results

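The difference that remained between treated and healthy lung was measured by setting the 4 ND-RHL libraries against the 4 saline libraries. Of 35599 genes in the deposited table, 14604 had an FPKM (fragments scaled to gene length and library total) of at least 1 in 4 or more of these 8 libraries, and all 14604 were tested. The saline group is the labelled control. The ND-RHL group was challenged with bleomycin and lipopolysaccharide (LPS), the combination labelled AE-PF, a model of pulmonary fibrosis with an acute exacerbation, and was then treated with ND-RHL, liposomes that carry nintedanib and dexamethasone and bear hyaluronic acid and RGD peptides on their surface. The remaining group of 4 libraries, AE-PF without treatment, is given beside the results as a reference, so the series holds 12 lung libraries in all. The sources used here do not give strain, sex, age, doses, intervals or the hour of collection, or whether the libraries of a group came from separate animals, so p-values measure the spread between these libraries, part of which may be technical. The ND-RHL and saline mice differed in the challenge and in the treatment together, and the contributions of these to a difference cannot be told apart. No group given empty liposomes or a single drug was analysed here.

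Bleomycin injures the alveolar epithelium and is followed by inflammation and deposition of collagen, and LPS adds an acute inflammatory burst through the bacterial lipid sensor TLR4. Nintedanib blocks the tyrosine kinase receptors for platelet-derived, fibroblast and vascular endothelial growth factors. Dexamethasone activates the glucocorticoid receptor, which raises a set of target genes and restrains inflammatory ones, and hyaluronic acid and RGD peptides bind the receptor CD44 and RGD-binding integrins.

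The 8 libraries held 16152379 to 21667129 fragments each, and 3 fragments on a gene of 1 kb correspond to an FPKM of 0.138 to 0.186. All 8 had the genes of lung at high level, with 10792 to 13515 FPKM of the surfactant gene Sftpc in saline and 7899 to 14292 in ND-RHL. ND-RHL library 4 stood apart. The summed FPKM of 13 stratified squamous epithelium markers was 6480.5 there and 2.95 to 5.94 in the other 7 libraries, and the keratin gene Krt13 was at 0.127, 0.207, 0.0817 and 0.235 FPKM in saline and 0.271, 0.17, 0.17 and 2948 in ND-RHL. The 12 skeletal muscle markers summed to 2025 FPKM in ND-RHL library 4, 154 in saline library 3 and 5.29 to 25.1 in the other 6. This library also had the highest sums of T cell, B cell and antibody genes, and the part of the squamous and muscle RNA in those values was not tested. Counts that lead a paragraph are therefore given with and without it. Among the untreated libraries, AE-PF library 2 stood apart in the same way, with 1954 FPKM of squamous and 862 of skeletal muscle markers where the other 3 had 2.63 to 2.85 and 4.70 to 5.38. Side values that depend on it are given without it as well.

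ND-RHL lung differed from saline lung in 3725 of 14604 genes (25.5%; limma on log2(FPKM + 1), adjusted p under 0.05), of which 2220 were higher (15.2%) and 1505 lower (10.3%). At least 2-fold differences, on the log2(FPKM + 1) scale that is used for every fold and difference here and that understates the change of low genes, were found in 269 genes (1.84%), 207 higher and 62 lower. Most called differences were smaller, with a median size of 0.38 on the log2 scale. The median difference of all tested genes was 0.02. Higher genes made up 59.6% of the calls with FPKM as deposited, 66.1% once FPKM totals were made equal and 47.2% under quantile normalisation, so the direction that holds the majority depends on the scaling. The 4 saline and the 4 ND-RHL values did not overlap in 4364 genes (29.9%). Without ND-RHL library 4 the test called 3533 genes, 2140 higher and 1393 lower.

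In the fit of all 12 libraries, which gives the side values for the untreated model, 15164 genes were tested. AE-PF differed from saline in 8578 of them (56.6%), ND-RHL from AE-PF in 6332 (41.8%) and ND-RHL from saline in 3323 (21.9%), 2011 higher (13.3%) and 1312 lower (8.65%). These 3 comparisons share libraries pairwise, so their values are set side by side without a measure of agreement. The individual ND-RHL libraries differed in their distance from saline. At least 2-fold from the saline mean lay 371, 604, 257 and 768 genes in ND-RHL libraries 1 to 4, against 97, 73, 120 and 86 for each saline library measured from the mean of the other 3. Without AE-PF library 2, AE-PF differed from saline in 8167 of 15009 genes and ND-RHL from AE-PF in 5574.

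**Figure D1:**
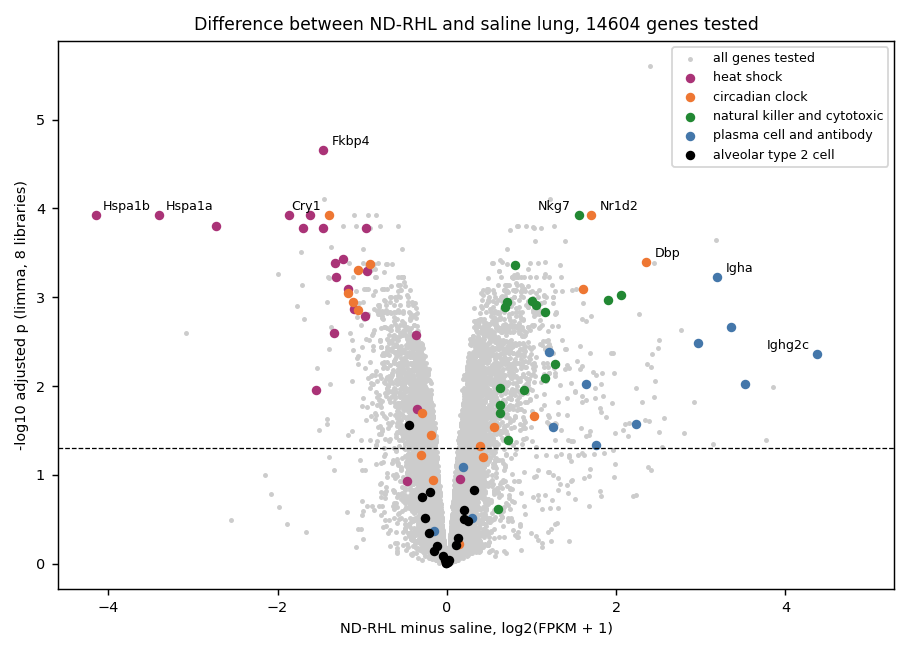
Each point is 1 of the 14604 genes tested, with the ND-RHL minus saline difference in log2(FPKM + 1) on the x axis and -log10 of the limma adjusted p on the y axis; the dashed line is an adjusted p of 0.05. Heat shock genes lie on the left with Hspa1b at -4.15, clock genes lie on both sides, cytotoxic and antibody genes lie on the right with Ighg2c at 4.37, and alveolar type 2 genes lie near 0.

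The lists of genes described next are summarised in the plot of list members. Of the 48 lists, which were put together with earlier results of these data known, those with the highest median difference were antibody genes (1.77), T cell genes (0.98), recruited macrophage genes (0.94), B cell genes (0.92) and cytotoxic genes (0.91). The lowest medians were those of the heat shock list (-1.32) and of the large airway list, also -1.32, in which no gene was called. Without ND-RHL library 4 the highest were antibody genes (1.297), cytotoxic genes (1.11), recruited macrophage genes (0.89), MHC class II genes (0.82), T cell genes (0.78) and B cell genes (0.71), and the lowest were large airway (-2.04) and heat shock genes (-1.35). The count of called members in each list stands against 15.2% of all genes called higher and 10.3% called lower, and a count near those shares is not read as a result about its list. A gene under FPKM 1 in every saline library was tested only where all 4 ND-RHL values reached 1. Its direction and lack of overlap were therefore set by the filter. Dbp, Ctla4, Cd28, Ighg2b, Ms4a7, Mmp12, Trem2, Saa3, Eda2r, Cxcl9 and Cxcl10 are such genes. None of them was tested when an ND-RHL library was left out, which lowers the counts of those fits. Where fewer members of a list were tested without ND-RHL library 4, those left out had passed the filter only with that library.

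**Figure D2:**
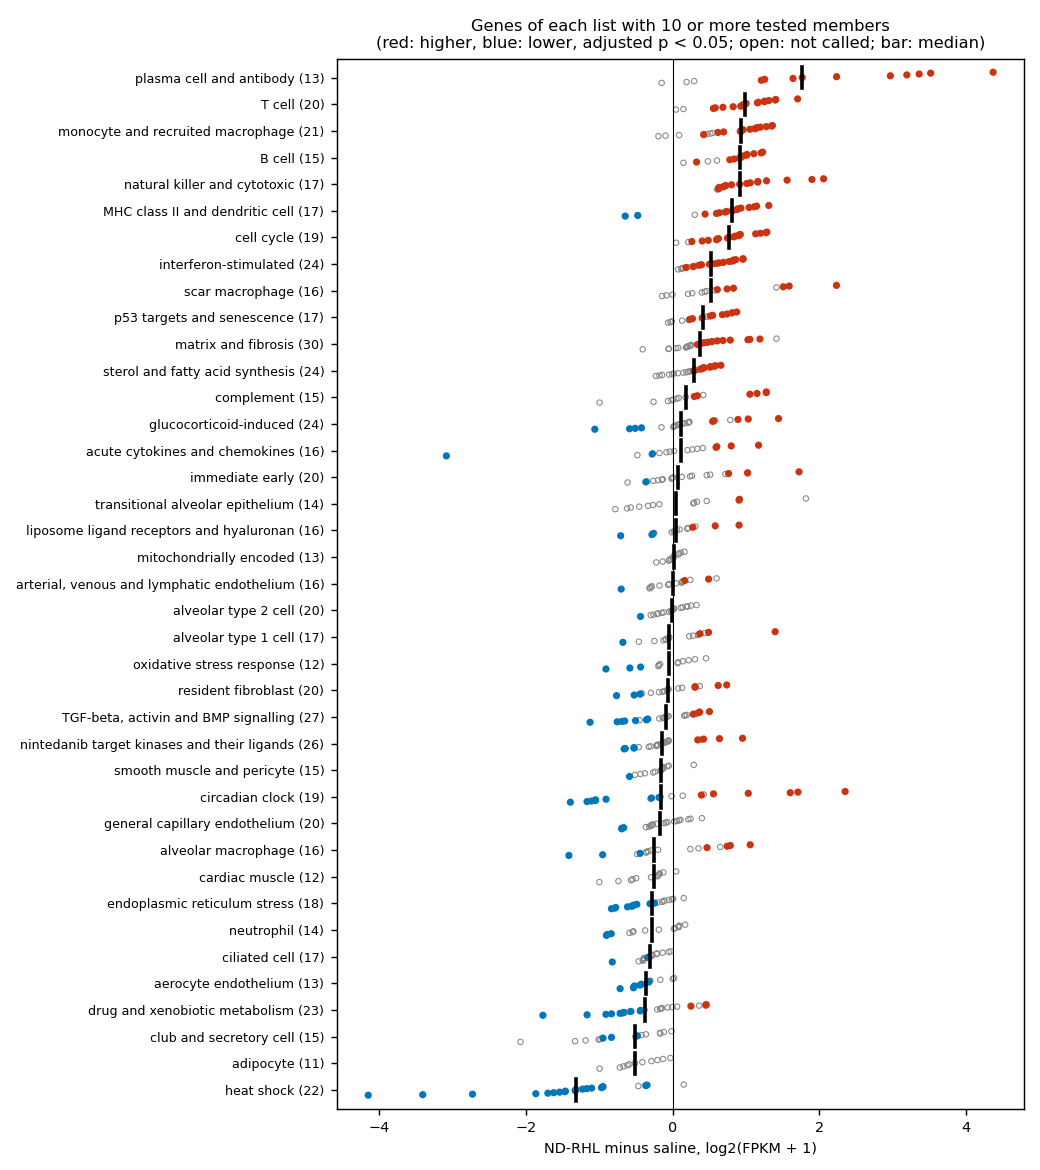
Every tested gene of each list with 10 or more tested members (number in brackets) is a point at its ND-RHL minus saline difference in log2(FPKM + 1); filled red points are called higher, filled blue points called lower, open points not called, and the black bar is the list's median. The heat shock list is the lowest with a median of -1.32 and the antibody list the highest with 1.77.

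Most heat shock genes fell. They encode the chaperones that fold and refold proteins in the cytosol, with the co-chaperones that load and release their clients, and heat shock factor 1 raises many of them together when unfolded protein accumulates. Of 22 genes of the list, 20 fell in ND-RHL lung and none rose, against 10.3% of all genes lower, and the median was -1.32 where that of all genes was 0.02. The 4 ND-RHL values did not overlap the 4 saline values in 21 of the 22 (29.9% of all genes). Without ND-RHL library 4, 21 of 22 were lower. The promoters of 2 of these genes are shown because they carry the heat shock element, the letters heat shock factor 1 binds. The windows are 300 bases of the RefSeq annotation on GRCm38.p6 in the direction of the gene, with the start site at position 251, and capitals mark the matches. They were picked for the match, after the values were seen.

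Hsph1, chr5:149636287-149636586, minus strand: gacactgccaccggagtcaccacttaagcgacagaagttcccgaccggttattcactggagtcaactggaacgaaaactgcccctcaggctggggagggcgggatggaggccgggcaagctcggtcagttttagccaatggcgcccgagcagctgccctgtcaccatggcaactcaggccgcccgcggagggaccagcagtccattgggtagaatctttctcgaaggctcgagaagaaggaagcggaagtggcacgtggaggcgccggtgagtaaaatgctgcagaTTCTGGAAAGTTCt

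Chordc1, chr9:18292017-18292316, plus strand: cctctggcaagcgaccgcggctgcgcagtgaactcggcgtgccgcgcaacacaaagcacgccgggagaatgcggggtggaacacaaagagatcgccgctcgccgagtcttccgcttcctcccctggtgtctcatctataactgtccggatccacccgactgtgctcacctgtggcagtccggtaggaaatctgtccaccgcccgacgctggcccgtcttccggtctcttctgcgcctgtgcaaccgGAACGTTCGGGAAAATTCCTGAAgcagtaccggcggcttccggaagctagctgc

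The element was searched as GAA, any 2 bases, TTC, any 2 bases and GAA, or as TTC, any 2 bases, GAA, any 2 bases and TTC, on both strands. Hsph1 had a match from position 287, and Chordc1 had 3 that overlap each other, from positions 247, 252 and 257. Among the 20 heat shock genes that fell, 16 had a promoter in the table and 4 of these genes held a match, beside 0.662% of all 27025 genes of the table. Counted by window, since a gene can have several start sites, a match stood in 5 of 22, beside 0.603% of all 32851. A match describes the letters of the window and no more.

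Hspa1b, an inducible HSP70 chaperone (chr17:34956436-34959238, minus strand, GRCm38), had the largest fall of any gene named here. It stood at 121, 117, 121 and 119 FPKM in saline and at 4.88, 3.53, 5.76 and 10.9 FPKM in ND-RHL. Every ND-RHL library was far below every saline library, and the difference was -4.15 on the log2 scale (95% confidence interval -4.72 to -3.57, adjusted p = 0.000119), a 17.7-fold lower level. The untreated model was at 4.45 ± 0.514 FPKM (SD, n = 4), and ND-RHL did not pass the test against it (difference 0.33, interval -0.16 to 0.81, adjusted p = 0.261). Its neighbour and near-identical copy Hspa1a was at 33.3, 32.5, 29.7 and 34.2 FPKM in saline and 1.80, 1.13, 2.68 and 3.53 in ND-RHL. The sources used here do not give how reads that match both copies were counted, so the split between them is uncertain, while both were lower in all 4 ND-RHL libraries.

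Hsph1, a nucleotide exchange factor for those chaperones, was at 81.9, 83.5, 85.6 and 88.7 FPKM in saline and 13.5, 8.97, 9.78 and 17.2 in ND-RHL, a fall of 2.73 (adjusted p = 0.000156). Hspa8, the constitutive member of the same chaperone family, was at 637, 626, 777 and 719 FPKM in saline and 203, 206, 186 and 255 in ND-RHL. The groups of both genes were apart. Hsp90aa1, the inducible cytosolic HSP90, fell 2.77-fold, from 330.0 ± 34.3 to 119 ± 12.3 FPKM (SD, n = 4, adjusted p = 0.000165). HSP90 works with co-chaperones, and these were lower as well: Stip1, which hands clients from HSP70 to HSP90, fell 3.07-fold and Dnaja1, a J-domain partner of HSP70, fell 3.64-fold (adjusted p = 0.000119 for each). Fkbp4, the HSP90 partner that accompanies steroid receptors, had the smallest p of the list. Its FPKM was 146, 145, 148 and 140.2 in saline and 55.2, 47.4, 51.1 and 54.6 in ND-RHL (difference -1.46, adjusted p = 2.22e-05).

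Fkbp4 and Hspa8 also differed between treated and untreated model lung, in opposite directions. Fkbp4 was at 28.0 ± 5.90 FPKM in AE-PF, lower than in ND-RHL (ND-RHL minus AE-PF 0.89, adjusted p = 0.000298), and Hspa8 was at 281 ± 23.8, higher than in ND-RHL (-0.41, adjusted p = 0.0133). Of the whole list, 21 of 22 were lower in AE-PF than in saline (30.2% of all genes lower in that comparison), and against AE-PF 3 were higher and 1 lower in ND-RHL lung (24.3% and 17.4% of all genes). Chordc1, an HSP90-binding protein and the second gene whose promoter is shown, was at 21.6, 21.9, 21.3 and 26.7 FPKM in saline and 8.06, 8.71, 7.16 and 10.3 in ND-RHL, with no overlap. Hspb1, a small heat shock protein, varied more within the groups. It was at 258, 258, 364 and 392 FPKM in saline and 98.7, 67.1, 94.9 and 206 in ND-RHL, where library 4 came nearest to saline (adjusted p = 0.011).

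The chaperones of the endoplasmic reticulum, which answer to unfolded protein in the secretory pathway, were lower by smaller amounts. Of 18 genes of that list, 10 fell (10.3% of all genes lower) and none rose, with a median of -0.28, and the count without ND-RHL library 4 was also 10. Creld2, a secreted-pathway disulfide isomerase partner, was at 48.7, 46.4, 53.9 and 53.4 FPKM in saline and 31.1, 28.6, 24.9 and 27.3 in ND-RHL (difference -0.83, adjusted p = 0.000588). Ddit3, the stress transcription factor CHOP, fell 1.44-fold and Herpud1, part of the degradation machinery of this organelle, fell 1.53-fold. Xbp1, the transcription factor spliced under this stress, was at 90.3, 87.9, 99.8 and 92.0 FPKM in saline and 66.7, 65.3, 57.9 and 60.4 in ND-RHL, while AE-PF was at 96.0 ± 15.3. The 4 ND-RHL values of each of these genes lay below the 4 saline values.

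Clock genes differed in a pattern of opposite directions. In the circadian clock, the activators BMAL1 (Arntl), CLOCK and NPAS2 switch on the Per and Cry genes, the Nr1d repressors and Dbp through E-box letters, PER and CRY proteins shut the activators down, NR1D proteins repress Arntl and Npas2, and DBP and TEF activate through D-box letters that NFIL3 represses. Of 19 clock genes tested, 6 rose and 8 fell, against 15.2% of all genes higher and 10.3% lower. Without ND-RHL library 4, 5 of 18 were higher and 8 lower. The count of higher clock genes fell to 3 without ND-RHL library 1 or 2 and without saline library 3 or 4. Dbp, under FPKM 1 in every saline library, was not tested when an ND-RHL library was left out. It left those counts through the filter and not through a lost call. The following 3 windows, in the same layout, show an E-box (CACGTG) or a D-box (TTA, T or C, then GTAA) in capitals and were picked after the values were seen.

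Ciart, chr3:95882179-95882478, minus strand: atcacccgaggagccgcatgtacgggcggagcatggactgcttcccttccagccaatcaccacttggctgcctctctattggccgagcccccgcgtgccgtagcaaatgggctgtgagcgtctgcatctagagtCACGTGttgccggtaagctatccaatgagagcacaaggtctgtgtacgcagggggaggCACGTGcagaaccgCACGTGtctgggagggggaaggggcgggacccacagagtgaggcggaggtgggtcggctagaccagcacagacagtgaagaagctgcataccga

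Cry1, chr10:85185005-85185304, minus strand: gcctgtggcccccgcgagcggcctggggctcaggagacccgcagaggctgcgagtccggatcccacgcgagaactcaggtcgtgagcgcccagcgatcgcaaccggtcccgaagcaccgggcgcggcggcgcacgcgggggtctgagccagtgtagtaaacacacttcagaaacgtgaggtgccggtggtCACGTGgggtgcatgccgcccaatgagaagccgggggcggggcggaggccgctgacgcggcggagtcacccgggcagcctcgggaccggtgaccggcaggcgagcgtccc

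Per3, chr4:151044616-151044915, minus strand: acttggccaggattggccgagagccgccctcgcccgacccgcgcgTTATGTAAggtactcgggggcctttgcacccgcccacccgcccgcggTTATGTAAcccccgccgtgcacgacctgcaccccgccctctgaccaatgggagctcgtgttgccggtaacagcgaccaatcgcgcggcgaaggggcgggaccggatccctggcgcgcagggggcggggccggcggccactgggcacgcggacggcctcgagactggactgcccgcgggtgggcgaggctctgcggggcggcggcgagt

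The E-box stands at positions 135, 193 and 207 of the Ciart window and at position 191 of the Cry1 window, and the D-box at positions 46 and 93 of the Per3 window. Of the 14 clock genes that differed, 13 had a promoter in the table, 4 of these genes held an E-box and 1 held a D-box, beside 8.09% and 1.23% of all genes of the table. Counted by window, an E-box stood in 5 of 18 and a D-box in 1, beside 7.15% and 1.06% of all windows.

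Dbp (chr7:45705088-45710203, plus strand, GRCm38), an output gene of the clock, was at 0.74, 0.613, 0.58 and 0.49 FPKM in saline and 8.00, 10.9, 5.48 and 5.44 in ND-RHL. All 4 ND-RHL values lay far above saline, a rise of 2.35 (95% confidence interval 1.91 to 2.79, adjusted p = 0.000404), 5.10-fold on this scale. The direction and lack of overlap of Dbp were set by the filter, since every saline value was under FPKM 1. AE-PF was at 4.16 ± 1.46 FPKM, between the groups, and ND-RHL was higher than AE-PF as well (difference 0.71, adjusted p = 0.0262). The repressor gene Nr1d2 was at 5.94, 5.93, 6.42 and 7.45 FPKM in saline and 24.2, 26.7, 22.6 and 19.7 in ND-RHL, 3.27-fold higher (adjusted p = 0.000119), and its relative Nr1d1, chosen after its values were seen like Ciart, Per3, Npas2, Nfil3 and Chordc1, rose 3.04-fold. Per1, which glucocorticoids also induce, was at 8.84, 9.57, 7.50 and 7.13 FPKM in saline and 11.9, 13.1, 23.2 and 27.6 in ND-RHL. Its 4 ND-RHL values lay above saline but were split, with libraries 3 and 4 about as high as AE-PF (22.7 ± 6.20 FPKM), and the call (adjusted p = 0.0215) was lost without saline library 3 (0.0549) or 4 (0.0569).

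Among the clock genes that fell were Arntl and Npas2 and the repressor genes Cry1, Ciart and Nfil3. Arntl was at 6.71, 7.34, 7.23 and 7.19 FPKM in saline and 3.66, 2.73, 3.58 and 3.40 in ND-RHL, a fall of 0.91 (adjusted p = 0.000424), with 3.48 ± 0.34 in AE-PF. Cry1 was at 11.8 to 13.7 FPKM in saline and 4.64, 3.93, 3.67 and 4.94 in ND-RHL, a fall of 1.39 (adjusted p = 0.000119). Neither gene had an ND-RHL value within the saline range. Npas2 fell 2.24-fold, Ciart, a repressor of the BMAL1 and CLOCK pair, fell 2.15-fold and Nfil3 fell 2.07-fold. Nfil3 was at 6.38 ± 1.17 FPKM in ND-RHL and 11.9 ± 2.83 in AE-PF, a difference of -0.79 (adjusted p = 0.0027). Per3 was at 2.57, 2.81, 2.39 and 2.53 FPKM in saline and 4.79, 5.49, 4.34 and 2.80 in ND-RHL, where library 4 lay within the saline range (adjusted p = 0.0292), and the call was lost without ND-RHL library 1, 2 or 3 or any saline library (0.0569 to 0.0709). Of the 19 clock genes, 6 were higher and 9 lower in AE-PF than in saline (26.4% of all genes higher and 30.2% lower). The sources used here do not give the hour at which each lung was collected, and its part in these values was not tested.

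**Figure D3:**
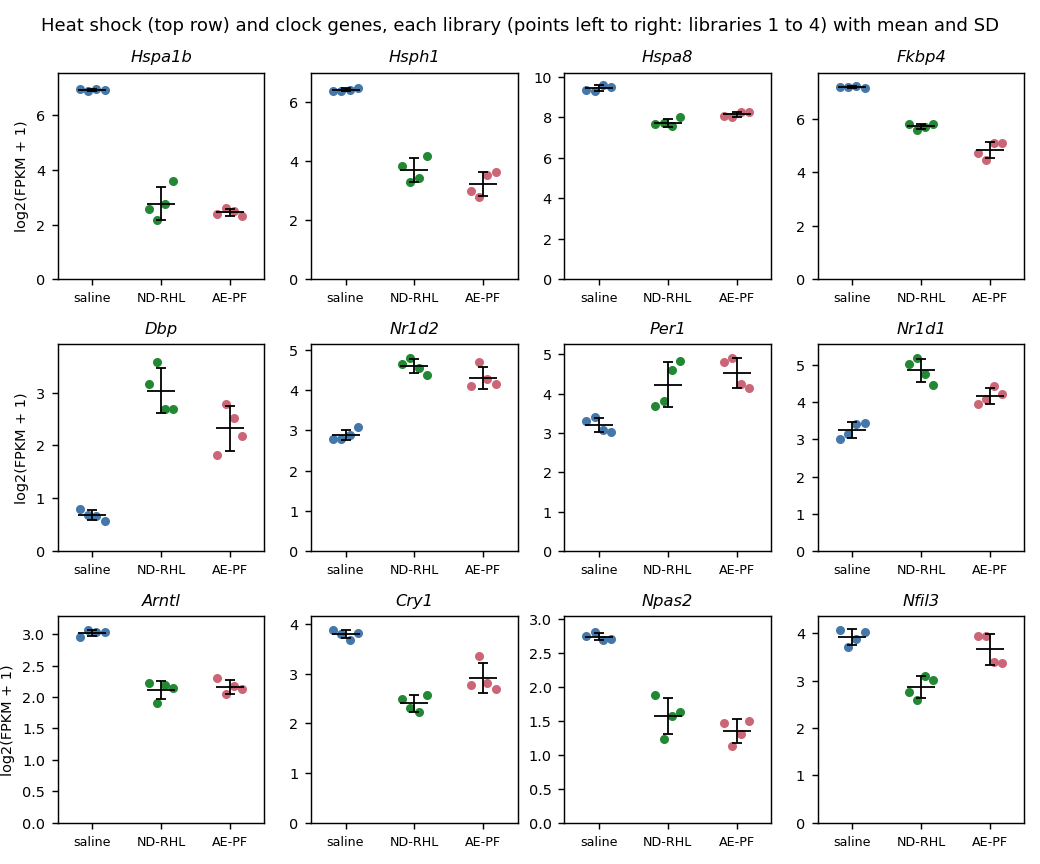
Each panel gives 1 gene as log2(FPKM + 1) in the 4 saline, 4 ND-RHL and 4 AE-PF libraries (points, libraries 1 to 4 from left to right), with the mean and SD as bars. The 4 heat shock genes of the top row are lower in every ND-RHL library than in every saline library, Dbp, Nr1d2, Per1 and Nr1d1 are higher and Arntl, Cry1, Npas2 and Nfil3 lower.

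Cytotoxic lymphocyte genes rose in ND-RHL lung against saline lung, and most were also higher than in the untreated model. Natural killer cells and CD8 T cells kill by releasing perforin and granzymes, and they secrete the chemokine CCL5. Of 17 tested genes of this list (20 in all), 16 rose, against 15.2% of all genes, and 14 of 15 without ND-RHL library 4, with a median of 0.91. Members that were not tested without library 4 had passed the filter only with it, so the filter can have set their direction. In AE-PF none of these 17 was higher than saline and 5 were lower, near the 30.2% of all genes that were lower there, and 16 were higher in ND-RHL than in AE-PF (24.3% of all genes). Without AE-PF library 2 these counts were 1, 3 and 15. In bulk lung, more cells of a type and more RNA per cell cannot be told apart, for these and all later lists.

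Gzmb, granzyme B, was at 1.93, 1.43, 2.18 and 1.87 FPKM in saline and 9.64, 12.7, 11.8 and 5.72 in ND-RHL, 3.73-fold higher (difference 1.90, interval 1.41 to 2.38, adjusted p = 0.00106). All 4 ND-RHL values were above saline, and AE-PF was at 1.44 ± 0.592. Nkg7, a granule membrane protein of killer cells, was at 4.75, 5.84, 5.75 and 5.22 FPKM in saline and 16.2, 18.6, 20.5 and 16.2 in ND-RHL, among the tightest groups of the list (difference 1.56, adjusted p = 0.000119). Ccl5 was at 6.87, 6.46, 7.70 and 8.85 FPKM in saline and 25.7, 29.0, 32.2 and 56.0 in ND-RHL, with library 4 the highest. S1pr5, the receptor that lets natural killer cells leave lymphoid tissue, rose 1.74-fold while AE-PF, at 0.517 ± 0.19 FPKM, was below saline (1.20 ± 0.097; adjusted p = 0.000497). Against AE-PF, the ND-RHL difference was 2.15 for Gzmb (adjusted p = 6.62e-05), 2.03 for Nkg7 (0.000764) and 1.79 for Ccl5 (0.00282).

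T cell genes rose in 18 of 20 tested cases (15.2% of all genes higher) and none fell, 14 of 16 without ND-RHL library 4. Members such as Ctla4 and Cd28 passed the filter only through their ND-RHL values, so their direction was fixed by the filter. Cd8b1, a chain of the coreceptor of killer T cells, was at 2.52, 2.29, 2.01 and 1.20 FPKM in saline and 6.78, 9.10, 6.88 and 12.9 in ND-RHL (difference 1.70, adjusted p = 0.00162), with no overlap and 2.80 ± 1.55 in AE-PF. Cd8a, the other chain, rose 2.38-fold. Ctla4, an inhibitory receptor of activated and regulatory T cells, was a member whose ND-RHL level was below that of AE-PF. It was at 0.357, 0.324, 0.341 and 0.236 FPKM in saline, 2.15, 2.23, 1.39 and 2.94 in ND-RHL and 4.15 ± 1.41 in AE-PF (ND-RHL minus AE-PF -0.67, adjusted p = 0.0184). The costimulatory receptor Cd28 rose 1.98-fold, from 0.612 ± 0.0816 to 2.24 ± 0.659 FPKM. With an FPKM minimum of 5, 7 T cell genes, 6 cytotoxic genes and 2 cell cycle genes were called higher, beside 1398 of all genes tested in that fit. That filter leaves out genes of low level. The number of list members tested under it is not given here, so these counts are not read as results.

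B cell genes rose in 12 of 15 cases (15.2% of all genes higher), the same number without ND-RHL library 4, and 14 of the 15 were higher in ND-RHL than in AE-PF (24.3% of all genes), 13 without AE-PF library 2. Cd79b, the signalling chain of the B cell receptor, was at 10.7, 10.9, 12.7 and 13.3 FPKM in saline and 29.9, 23.4, 22.7 and 42.2 in ND-RHL (difference 1.21, adjusted p = 0.00338). All 4 ND-RHL values were above saline and library 4 was the highest, as it was for Fcer2a, the low-affinity IgE receptor (9.04, 7.59, 6.99 and 14.9 FPKM), and Fcmr, the IgM receptor (11.0, 10.2, 10.5 and 21.5 FPKM). In AE-PF, Cd79b was at 9.71 ± 4.93 FPKM and Fcer2a at 3.27 ± 2.47.

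The 5 genes with the largest rises among all those called were antibody genes, and this group varied widely between libraries. Plasma cells secrete antibody built from heavy and light chains, and the J chain joins IgA and IgM into polymers. Of 13 tested genes of the list, 10 rose, against 15.2% of all genes, and 9 of 11 without ND-RHL library 4 and 6 without library 1. Ighg2c, a heavy chain of IgG, was at 0.557, 0.285, 0.224 and 1.01 FPKM in saline and 15.0, 18.9, 15.4 and 169.7 in ND-RHL, where library 4 was about an order of magnitude above the other 3. The groups were still apart, with a difference of 4.37 (20.6-fold, adjusted p = 0.00438), although the saline values are near the level of a few fragments, and the voom fit of recovered fragments did not call it (0.0725). Igha, the heavy chain of IgA, was at 7.08, 5.26, 12.5 and 8.02 FPKM in saline and 53.1, 128, 68.2 and 88.0 in ND-RHL, a rise in which library 4 was not the highest (difference 3.19, adjusted p = 0.000597). Jchain was at 7.30, 2.25, 3.84 and 6.07 FPKM in saline and 55.4, 47.7, 28.1 and 127 in ND-RHL, 10.3-fold higher (adjusted p = 0.00218).

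Ighg2b, another IgG heavy chain, was at 0.31, 0.201, 0.185 and 0.708 FPKM in saline and 11.4, 8.14, 5.04 and 78.5 in ND-RHL, again highest in library 4 (adjusted p = 0.00942; 0.0734 by voom and 0.0967 in the fit of 12 libraries). Its direction was set by the filter. Igkc, the kappa light chain, was at 59.4, 35.1, 58.7 and 72.3 FPKM in saline and 409.5, 321, 242 and 1108 in ND-RHL. Ighd, which marks naive B cells, rose less, 2.31-fold. The antibody genes also varied widely in AE-PF, where Igha was at 496, 28.9, 162 and 110.2 FPKM. ND-RHL did not pass the test against AE-PF for Igha (adjusted p = 0.448, and 0.0456 with a difference of -1.36 without AE-PF library 2), Jchain (0.472), Igkc (0.33) or Ighg2c (0.403). Antibody constant genes resemble each other, and the sources used here do not give how reads that match several were counted, so their separate values are uncertain. Pigr, the epithelial receptor that carries polymeric IgA and IgM into the airway, was at 69.2, 35.5, 24.5 and 25.3 FPKM in saline and 22.8, 7.64, 13.6 and 7.73 in ND-RHL, 2.84-fold lower (adjusted p = 0.0311; 0.0622 to 0.0772 without ND-RHL library 2 or 4 or saline library 1 or 2), and at 6.48 ± 3.22 in AE-PF.

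Most genes rose in a list that joins MHC class II genes, whose products show peptides to helper T cells, with genes of dendritic cells. The genes named here are of MHC class II, while the dendritic cell gene Flt3 is given below with the kinases. The 2 members that fell are not named. Of 17 genes of this list, 14 rose (15.2% of all genes higher) and 2 fell (10.3% lower), 13 and 2 of 16 without ND-RHL library 4. H2-Ab1 was at 121, 113, 128 and 114 FPKM in saline and 228, 241, 220.1 and 223 in ND-RHL, a rise of 0.93 with tight groups (interval 0.79 to 1.07, adjusted p = 0.000156). H2-Aa, its partner chain, rose 2.06-fold, H2-Eb1 2.16-fold and H2-DMb1, a chain of the peptide-loading factor, 1.84-fold. The 4 AE-PF values of H2-Ab1, at 124, 43.4, 292 and 256 FPKM, lay on both sides of the ND-RHL and saline values. With those libraries in the fit and 1 shared estimate of the spread, 4 members were called higher, and none of these H2 genes was (adjusted p = 0.0774 to 0.17). AE-PF library 2 had the lowest of the 4 values. Without it, the same fit called 13 members higher in ND-RHL than in saline, these H2 genes among them (adjusted p = 0.00177 to 0.0105), and 12 members higher in AE-PF than in saline, against 2 with it.

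Interferon-stimulated genes were higher as well. Interferons made during infection or lymphocyte activation switch these antiviral genes on. Of 24 genes, 16 rose (15.2% of all genes higher) and none fell, the same without ND-RHL library 4, and 8 rose in the fit of 12 libraries, 12 in that fit without AE-PF library 2. Ifi44 was at 1.64, 1.52, 1.51 and 1.73 FPKM in saline and 3.70, 4.14, 3.37 and 3.26 in ND-RHL, with 1.59 ± 0.814 in AE-PF, where ND-RHL was higher than AE-PF too (adjusted p = 0.0033). Oas1a, an RNA-sensing enzyme, rose 1.95-fold and Irf7 1.82-fold. In AE-PF, 2 of the 24 genes were higher and 2 lower than in saline, and 8 were higher and 2 lower without AE-PF library 2 (26.4% and 30.2% of all genes with it). The interferon-gamma induced chemokine genes Cxcl9 and Cxcl10 went from 0.238 ± 0.16 to 1.90 ± 1.06 and from 0.52 ± 0.156 to 1.66 ± 0.465 FPKM, beside AE-PF at 5.85 ± 3.77 and 5.95 ± 3.09 (adjusted p of ND-RHL against AE-PF 0.0802 and 0.0135). Without AE-PF library 2, the ND-RHL level of Cxcl9 was below the AE-PF level (0.00141). Both chemokine genes were under FPKM 1 in every saline library, so their direction against saline was set by the filter.

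Genes of monocytes and recruited macrophages stayed above saline. Monocytes that enter injured lung become macrophages that carry the complement component C1q and, in scars, a lipid-handling program. Of 21 tested genes of the monocyte and recruited macrophage list, 15 rose, against 15.2% of all genes, and 13 of 19 without ND-RHL library 4. Ms4a7, a marker of monocyte-derived macrophages, was at 0.902, 0.836, 0.991 and 0.893 FPKM in saline and 3.76, 5.49, 2.85 and 3.80 in ND-RHL (difference 1.36, adjusted p = 0.000857). Since every saline value of Ms4a7 was under FPKM 1, its direction and lack of overlap were set by the filter. AE-PF stood higher at 9.73 ± 1.16 (ND-RHL minus AE-PF -1.13, adjusted p = 0.00013). Cx3cr1, the fractalkine receptor of patrolling monocytes, was at 3.61, 3.13, 3.47 and 2.82 FPKM in saline and 9.81, 12.9, 8.48 and 8.60 in ND-RHL, beside 13.1 ± 6.74 in AE-PF (difference from AE-PF -0.20, interval -0.96 to 0.56). Without AE-PF library 2 that difference was -0.63 (adjusted p = 0.0146). Ly6c2, a marker of inflammatory monocytes, was at 8.07 ± 0.801 FPKM in ND-RHL, above saline at 3.75 ± 0.685 and also above AE-PF at 5.54 ± 0.677 (adjusted p = 0.00123 and 0.00586). Of the list, 17 genes were below and 1 above AE-PF in ND-RHL lung (17.4% of all genes lower and 24.3% higher).

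The scar macrophage list rose in 6 of 16 cases (15.2% of all genes higher), but in 2 of 14 without ND-RHL library 4, 2 without library 1 and 3 without library 2. Mmp12 and Trem2, described next, were under FPKM 1 in every saline library and were not tested in those fits. Part of the fall in the count therefore comes from the filter, which also set the direction of both genes against saline. Mmp12, macrophage elastase, was at 0.51, 0.567, 0.576 and 0.38 FPKM in saline and 4.29, 17.9, 2.27 and 6.67 in ND-RHL, highest in library 2 (difference 2.23, adjusted p = 0.0105). Trem2, a lipid receptor, was at 0.513, 0.818, 0.441 and 0.507 FPKM in saline and 3.61, 7.35, 1.44 and 3.17 in ND-RHL, also highest in library 2. Spp1, osteopontin, was at 46.7, 49.2, 55.4 and 56.5 FPKM in saline and 95.3, 541, 49.1 and 149 in ND-RHL, where library 3 lay within the saline range and library 2 was the highest. It was not called (difference 1.42, interval -0.00 to 2.83, adjusted p = 0.131) except without ND-RHL library 3 (0.0363), and AE-PF was far higher at 2011 ± 758. C1qb, a chain of complement C1q, was at 86.3, 121, 50.6 and 98.4 FPKM in ND-RHL, also highest in library 2, against 31.0 to 40.6 in saline and 297 ± 36.4 in AE-PF. Of 15 complement genes tested 6 rose (15.2% of all genes higher) and none fell (10.3% lower), the same without ND-RHL library 4. The summed FPKM of the complement list in ND-RHL was highest in library 1 (1600.2, 1023, 956 and 1188).

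The number of granulocyte and acute cytokine genes called depended on which libraries were in the fit. Of 14 tested neutrophil genes, 3 fell (10.3% of all genes lower) and none rose, 4 of 13 fell without ND-RHL library 4, and 1 fell without ND-RHL library 1 or 2 or saline library 3 or 4. Of 16 acute cytokine and chemokine genes 4 rose and 2 fell, against 15.2% of all genes higher and 10.3% lower, and 1 rose when any single ND-RHL library was left out. Genes under FPKM 1 in every saline library, such as Cxcl9 and Cxcl10, were not tested in those fits. Without ND-RHL library 4, 13 genes were tested, so part of that drop comes from the filter. Csf3r, the receptor for granulocyte colony-stimulating factor, was at 20.2, 19.9, 41.2 and 36.6 FPKM in saline and 16.4, 14.0, 19.3 and 12.0 in ND-RHL (adjusted p = 0.0458). Cxcr2, the receptor for neutrophil chemokines, fell 1.87-fold (adjusted p = 0.0405). Both calls were lost when ND-RHL library 1 or 2 or saline library 3 or 4 was left out (0.0744 to 0.109), Csf3r also without ND-RHL library 4 (0.0921) and Cxcr2 without library 3 (0.0601), and the saline values of Csf3r were split between libraries 1 and 2 and libraries 3 and 4. Cxcl5, an epithelial chemokine for neutrophils, was at 37.0, 12.8, 7.08 and 9.06 FPKM in saline and 1.24, 0.498, 0.526 and 0.617 in ND-RHL, with saline library 1 the highest (difference -3.08, adjusted p = 0.00253). S100a8, an alarmin of neutrophils, was at 60.6 ± 23.2 FPKM in saline and 41.0 ± 13.7 in ND-RHL (adjusted p = 0.257; 0.0441 with the replicate number as a block), and the granulocyte surface gene Cd177 at 9.70 ± 8.92 and 8.69 ± 3.75 against 92.2 ± 30.8 in AE-PF. The neutrophil list as a whole did not follow Cd177. Of its 14 tested genes, 2 were higher and 8 lower in AE-PF than in saline (26.4% of all genes higher and 30.2% lower). Both counts were the same without AE-PF library 2. Il1b was at 19.2 ± 6.94 and 16.5 ± 4.86 FPKM (difference -0.18, interval -0.79 to 0.43), and Il6, at 0.227 to 0.456 FPKM in saline and 0.142 to 0.484 in ND-RHL, was below the filter.

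The acute-phase gene Saa3 rose from 0.407, 0.248, 0.228 and 0.328 to 1.81, 5.37, 1.23 and 3.18 FPKM (2.76-fold, adjusted p = 0.00915), with AE-PF at 56.7 ± 29.8. With every saline value under FPKM 1, the direction of Saa3 against saline was set by the filter. Lcn2, an iron-trapping protein of inflamed epithelium, rose 2.72-fold and was at 64.3 ± 26.7 FPKM in ND-RHL and 81.2 ± 15.8 in AE-PF (adjusted p = 0.229 between them). Of the alveolar macrophage list, 4 of 16 genes rose (15.2% of all genes higher) and 3 fell (10.3% lower), with a median of -0.25. These counts were 4 and 2 without ND-RHL library 4, and none fell without ND-RHL library 2 or saline library 2, 3 or 4. Among those that rose, Siglec1 was 1.73-fold higher and Mrc1, a mannose receptor, 1.38-fold higher. The call of Mrc1 was lost in the fit of 12 libraries (adjusted p = 0.248). Car4, given below with the aerocyte genes, was among those that fell.

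Cell cycle genes rose in 17 of 19 cases (15.2% of all genes higher), 14 of 16 without ND-RHL library 4. The members not tested without that library had passed the filter only with it, so the filter can have set their direction. Top2a, the topoisomerase of dividing cells, was at 1.90, 1.60, 1.77 and 1.64 FPKM in saline and 5.12, 6.64, 3.89 and 7.48 in ND-RHL (difference 1.29, adjusted p = 0.00152). Rrm2, which makes nucleotides for DNA synthesis, rose 2.41-fold, and Mcm5, of the replicative helicase, rose 1.87-fold. AE-PF was at 8.74 ± 1.91 FPKM for Top2a and 7.42 ± 0.926 for Rrm2, each above ND-RHL (adjusted p = 0.033 and 0.0281). Every ND-RHL value of these 3 genes was above saline.

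Targets of p53, the factor that arrests damaged cells, rose in 9 of 17 cases (15.2% of all genes higher) and none fell, 9 of 16 without ND-RHL library 4 and 5 without library 1 or 2. Trp53inp1, a p53 target that promotes arrest and cell death, was at 13.7, 13.7, 12.9 and 14.6 FPKM in saline and 25.0, 27.8, 21.7 and 25.3 in ND-RHL (difference 0.81, adjusted p = 0.000587), beside 25.9 ± 3.98 in AE-PF (difference from AE-PF -0.04, interval -0.27 to 0.18). Ccng1, cyclin G1, rose 1.83-fold. Eda2r, a death receptor gene, went from 0.799, 0.669, 0.64 and 0.706 to 1.72, 2.52, 1.41 and 1.85 FPKM, between saline and AE-PF at 3.80 ± 0.507 (ND-RHL minus AE-PF -0.75, adjusted p = 0.000521). The direction of Eda2r against saline was set by the filter.

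**Figure D4:**
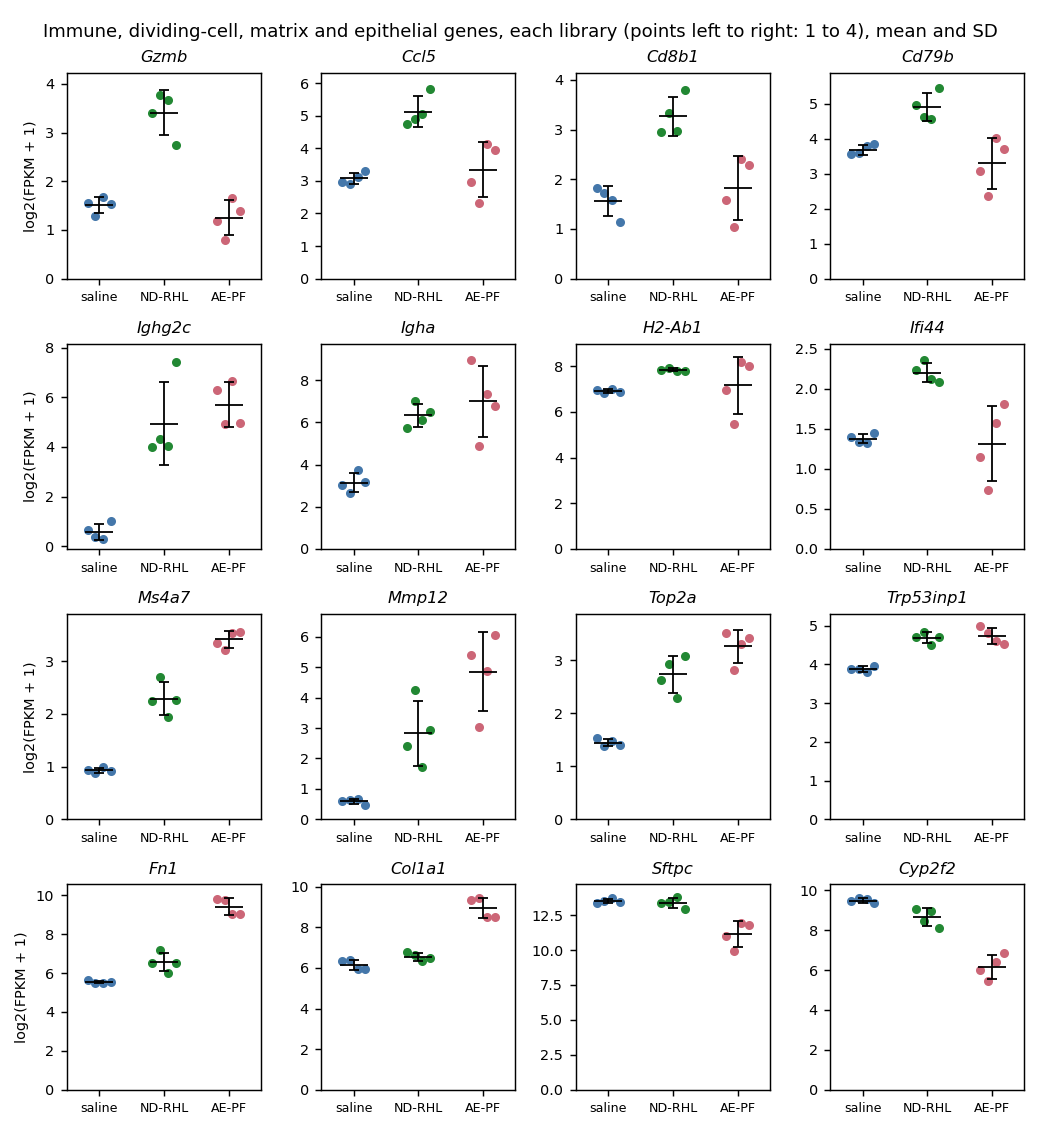
Panels give log2(FPKM + 1) of 16 genes in the 4 saline, 4 ND-RHL and 4 AE-PF libraries (points, libraries 1 to 4 from left to right) with mean and SD. Gzmb, Ccl5, Cd8b1 and Cd79b have higher means in ND-RHL than in both other groups, Ms4a7, Mmp12, Top2a and Fn1 lie between saline and AE-PF, and Sftpc overlaps saline.

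A minority of matrix genes stayed above saline. Fibrosis is the build-up of collagens, fibronectin and their modifying enzymes by fibroblasts. Of 30 genes of this list, 11 rose (15.2% of all genes higher) and none fell, 10 without ND-RHL library 4, 7 without ND-RHL library 1 or saline library 2, and 6 without saline library 3 or 4, and quantile normalisation gave 8 higher and 1 lower. The median was 0.38 in this comparison. In AE-PF against saline 28 of 30 were higher with a median of 2.19, and ND-RHL was lower than AE-PF in 27 of 30 (26.4% of all genes higher and 17.4% lower in these comparisons).

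Fn1, fibronectin, was at 48.2, 43.2, 44.4 and 45.8 FPKM in saline and 91.1, 142, 64.1 and 91.7 in ND-RHL, 2.04-fold higher with no overlap (adjusted p = 0.00902), and at 699 ± 205 in AE-PF. Mmp2, gelatinase A, which cuts collagen and gelatin, was at 49.0, 42.9, 35.9 and 35.1 FPKM in saline and 111, 114, 74.3 and 81.0 in ND-RHL, 2.28-fold higher (adjusted p = 0.00241). Col3a1, fibrillar collagen III, was at 105, 98.3, 88.5 and 80.4 FPKM in saline and 169, 159, 123 and 153 in ND-RHL (difference 0.69, adjusted p = 0.00527). These 3 were higher in every ND-RHL library. Col1a1, the main chain of collagen I, was at 81.4, 81.6, 61.3 and 60.6 FPKM in saline and 109, 98.5, 78.9 and 89.0 in ND-RHL, where library 3 lay within the saline range. It was not called (difference 0.40, interval 0.08 to 0.71, adjusted p = 0.0654) but passed with the replicate number as a block (0.0139) and without ND-RHL library 3 (0.0433).

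Timp1, an inhibitor of matrix proteases, was at 6.50, 6.93, 7.48 and 6.20 FPKM in saline and 11.0, 22.0, 8.30 and 11.5 in ND-RHL, against 177 ± 43.8 in AE-PF. Its call (adjusted p = 0.0456) was lost in 10 of 17 alternative settings, among them the replicate block (0.0539) and the fits without ND-RHL library 1 or 4 or any saline library (0.0646 to 0.101). Acta2, smooth muscle actin, was at 206, 196, 167 and 210.0 FPKM in saline and 363, 90.9, 175 and 154 in ND-RHL, which overlapped (difference -0.17, interval -0.98 to 0.65). The microfibril genes Fbn1 and Mfap5 rose 1.45-fold and 1.54-fold.

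In TGF-beta and BMP signalling, inhibitors and endothelial receptors were among the genes that fell. TGF-beta drives fibroblasts to make matrix, BMPs signal through related receptors, and SMAD6 and SMAD7 are inhibitors that these pathways induce. Of 27 genes, 4 rose, near the 15.2% of all genes higher, and 7 fell (10.3% of all genes lower), 5 and 6 without ND-RHL library 4, and 2 rose without saline library 2. Smad6 was at 78.2, 97.7, 64.0 and 66.2 FPKM in saline and 28.0, 36.1, 42.9 and 30.9 in ND-RHL, a fall of 1.12 (adjusted p = 0.00299). Acvrl1, the BMP9 receptor of endothelium, was at 208, 239.8, 214 and 195 FPKM in saline and 121, 135, 157 and 99.6 in ND-RHL (adjusted p = 0.0062), and its coreceptor Eng, endoglin, fell 1.61-fold. Smad7 fell 1.57-fold and Bmp2 1.42-fold. The ND-RHL values of all 5 genes lay below the saline values. AE-PF was lower still for Smad6, at 17.9 ± 4.07 FPKM (ND-RHL minus AE-PF 0.92, adjusted p = 0.00232).

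Among the kinases that nintedanib binds and their ligands, 4 of 26 rose and 4 fell, shares near the 15.2% and 10.3% of all genes, with 4 and 5 without ND-RHL library 4, and 7 fell with the replicate block. Pdgfra, the platelet-derived growth factor receptor of fibroblasts, was at 50.1, 51.9, 52.4 and 52.0 FPKM in saline and 32.6, 36.4, 42.7 and 31.4 in ND-RHL, a fall of 0.53 with no overlap (adjusted p = 0.00528). It was at 54.3 ± 13.3 FPKM in AE-PF, so ND-RHL was lower than both other groups (adjusted p against AE-PF 0.0097). Fgfr3 fell 1.58-fold and Fgfr4 1.44-fold, the latter not called without saline library 2 (0.0517), and AE-PF was at 13.4 ± 2.39 and 3.93 ± 0.928 FPKM where ND-RHL was at 21.2 ± 1.71 and 10.0 ± 2.02. Kdr, the main endothelial receptor for vascular endothelial growth factor, was at 62.6, 62.8, 57.4 and 56.0 FPKM in saline and 47.9, 52.9, 66.3 and 40.6 in ND-RHL and was not called (difference -0.22, interval -0.52 to 0.09) except without ND-RHL library 3 (0.0388). Among the genes that rose were Lyn, Csf1r and Flt3, kinases expressed in blood cells, which rose 1.27-, 1.34- and 1.56-fold. The call of Flt3 was lost in the fit of 12 libraries (adjusted p = 0.0707).

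The receptors for the surface ligands of the liposome changed in both directions, with 3 of 16 tested genes higher (15.2% of all genes) and 3 lower (10.3%), 2 and 2 without ND-RHL library 4, and 1 higher without ND-RHL library 1 or 2 or saline library 1 or 2. Cd44, the hyaluronan receptor, was at 25.1, 22.3, 31.5 and 33.1 FPKM in saline and 31.6, 34.5, 28.3 and 33.5 in ND-RHL, which overlapped (difference 0.20, interval -0.09 to 0.49, adjusted p = 0.286). Itgav, the alpha V chain of RGD-binding integrins, was at 7.24, 7.20, 6.68 and 8.31 FPKM in saline and 9.25, 9.85, 8.11 and 9.24 in ND-RHL, a small rise of 0.28 (adjusted p = 0.0312) that was lost in 7 of 17 alternative settings, among them the fits without ND-RHL library 1, 2 or 4 or saline library 1, 2 or 3 (0.0552 to 0.0803). Itgb6, its epithelial partner that activates TGF-beta, rose more, from 4.23, 4.77, 5.98 and 4.94 to 8.50, 13.4, 10.0 and 9.22 FPKM, a mean of 10.3 ± 2.17 beside 10.6 ± 3.86 in AE-PF. Hyal2, a hyaluronidase, fell 1.63-fold.

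Glucocorticoid-induced genes did not move in a single direction. Of 24 genes, 5 rose and 4 fell, against 15.2% of all genes higher and 10.3% lower, with a median of 0.12, and 5 and 3 of 23 did so without ND-RHL library 4. The higher count was 3 without ND-RHL library 2 or any saline library, and the lower count 2 without saline library 3. The receptor gene Nr3c1 was at 33.1, 33.4, 32.4 and 35.9 FPKM in saline and 31.2, 31.9, 33.1 and 27.4 in ND-RHL and was not called (difference -0.12, interval -0.27 to 0.03). Fkbp5, a chaperone partner and standard target, was at 2.65, 2.19, 2.71 and 2.71 FPKM in saline and 3.36, 3.56, 2.04 and 4.01 in ND-RHL. These overlapped (difference 0.23, interval -0.11 to 0.57, adjusted p = 0.294, and 0.0173 without ND-RHL library 3), while untreated AE-PF was at 30.2, 42.8, 12.0 and 11.3 FPKM, above ND-RHL in each library (ND-RHL minus AE-PF -2.37, adjusted p = 0.000515). Tsc22d3, the target known as GILZ, was at 37.1, 36.6, 45.2 and 44.6 FPKM in saline and 34.9, 36.9, 57.2 and 68.3 in ND-RHL, high in libraries 3 and 4 as for Per1, and was not called (adjusted p = 0.494).

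Zbtb16, another target, was at 3.43, 3.15, 4.36 and 5.07 FPKM in saline and 2.66, 2.77, 1.83 and 2.01 in ND-RHL, a fall of 0.59 (adjusted p = 0.0209; 0.0622 with the replicate block, 0.0561 without saline library 3, 0.36 in the fit of 12 libraries), against 11.1 ± 8.26 in AE-PF. Klf15, a metabolic transcription factor that glucocorticoids induce, was at 18.5, 19.6, 18.8 and 17.1 FPKM in saline and 9.07, 5.88, 9.44 and 9.52 in ND-RHL, 2.08-fold lower (adjusted p = 0.00168). Angptl4, a lipase inhibitor and target, rose 1.85-fold and was at 11.1 ± 3.03 FPKM, below AE-PF at 18.9 ± 2.78. Hsd11b1, the enzyme that regenerates active glucocorticoid, was at 68.3, 71.5, 69.5 and 64.0 FPKM in saline and 41.9, 47.9, 58.2 and 39.3 in ND-RHL, a fall of 0.55 (adjusted p = 0.0107). Its ND-RHL values were all below saline. The glucocorticoid response element (GNACA, any 3 bases and TGTNC) was found in 1 of the 7 genes with a promoter in the table among the 9 that differed, beside 0.537% of all genes, and in 2 of their 12 windows, beside 0.475% of all windows.

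Immediate early genes, which respond to stimulation within minutes, were higher in 3 of 20 cases, the share of all genes (15.2%), and lower in 1 (10.3% of all genes), and 6 and 1 without ND-RHL library 4, the lower gene being lost without ND-RHL library 1 or 2 or any saline library. Nr4a1, an orphan receptor induced by lymphocyte and growth signals, was at 13.1, 8.73, 19.0 and 21.7 FPKM in saline and 36.9, 55.0, 81.7 and 41.1 in ND-RHL, all higher (3.30-fold, adjusted p = 0.0069), with 20.4 ± 12.0 in AE-PF. Sterol synthesis genes rose in 11 of 24 cases (15.2% of all genes higher) and none fell, 10 without ND-RHL library 4, by small amounts: Sqle, squalene epoxidase, went from 7.03, 7.71, 6.87 and 7.18 to 10.4, 10.3, 9.96 and 12.1 FPKM (adjusted p = 0.00198) and Idi1 and Nsdhl rose 1.32- and 1.34-fold. In AE-PF 2 of the 24 were higher and 9 lower than in saline, and 5 and 9 without AE-PF library 2 (26.4% and 30.2% of all genes with it).

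Few genes of alveolar type 2 cells, which make surfactant, differed from saline. Of 20 genes, 1 fell and none rose (10.3% and 15.2% of all genes), 1 fell and 2 rose without ND-RHL library 4, 3 fell without library 3, and the median was -0.01. In AE-PF 19 of the 20 were lower than in saline and 19 were higher in ND-RHL than in AE-PF (30.2% and 24.3% of all genes), both also without AE-PF library 2. Sftpc was at 10792, 11879, 13515 and 11102 FPKM in saline and 10334, 10898, 14292 and 7899 in ND-RHL, with library 4 the lowest (difference -0.15, interval -0.77 to 0.47, adjusted p = 0.719). Hc, complement C5 made by these cells, was at 127 ± 13.6 FPKM in saline, 108 ± 28.5 in ND-RHL (adjusted p = 0.305, and 0.0465 without ND-RHL library 3) and 12.7 ± 9.35 in AE-PF. Ppp1r14c, a phosphatase inhibitor gene of the list, was the gene that fell (45.3, 50.3, 46.9 and 48.2 to 37.4, 30.8, 43.4 and 28.8 FPKM, adjusted p = 0.0274), and it lost the call in 7 of 17 alternative settings, among them without ND-RHL library 2 or any saline library (0.0531 to 0.0753).

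Of the alveolar type 1 list, the flat cells of gas exchange, 3 of 17 genes rose and 1 fell, against 15.2% and 10.3% of all genes, 7 and 1 without ND-RHL library 4, and 1 rose without saline library 1, 2, 3 or 4 or ND-RHL library 1 or 3, while 3 fell without ND-RHL library 3. Ager, the main marker, was at 592, 657, 666 and 524 FPKM in saline and 536, 708, 695 and 447 in ND-RHL, with overlap (difference -0.05, interval -0.43 to 0.33). Igfbp2, a growth factor binding protein of mature type 1 cells, was at 45.0, 52.4, 67.6 and 46.3 FPKM in saline and 135, 215, 117 and 109 in ND-RHL, 2.63-fold higher (adjusted p = 0.00378), with AE-PF at 137 ± 68.4. Rtkn2 fell 1.60-fold and was lower still in AE-PF (27.8 ± 5.20 and 12.8 ± 8.46 FPKM). Areg, amphiregulin of repairing epithelium, went from 4.25, 4.26, 7.76 and 8.15 to 8.63, 12.1, 12.4 and 15.4 FPKM (adjusted p = 0.0243), a call lost without ND-RHL library 2 (0.0557) and without saline library 1 (0.0627) or 2 (0.0663).

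Airway genes gave few calls. In the club cell list, secretory cells that detoxify inhaled compounds, 3 of 15 genes fell (10.3% of all genes lower), 2 without ND-RHL library 4, none without saline library 2, 1 without saline library 1 or 3, and 5 with the replicate block or without ND-RHL library 1, around a median of -0.51. Scgb1a1, the secretoglobin of these cells, was at 25960.5, 29468, 38054 and 26648 FPKM in saline and 15978, 15284, 21575 and 9021 in ND-RHL, lower in every library but not called (difference -1.01, interval -1.88 to -0.14, adjusted p = 0.0875). Cyp2f2, a cytochrome P450 of club cells, was at 701, 772, 745 and 655 FPKM in saline and 537, 347, 505 and 278 in ND-RHL, a fall of 0.83 (adjusted p = 0.0212) that was lost without ND-RHL library 2 (0.0557) and without saline library 1 (0.0506), 2 (0.0609) or 3 (0.0526). AE-PF was far lower at 75.9 ± 31.0. Foxj1, the master regulator of motile cilia, was at 52.1, 58.0, 38.6 and 40.3 FPKM in saline and 35.8, 21.7, 24.1 and 24.1 in ND-RHL, 1.77-fold lower (adjusted p = 0.0132). It was 1 of 2 of 17 ciliated cell genes that fell, a share near the 10.3% of all genes, and 12 fell without ND-RHL library 1 and 1 without library 2 or 4 or any saline library.

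Enzymes of drug and xenobiotic metabolism fell in 10 of 23 cases (10.3% of all genes lower) and rose in 3 (15.2% higher), the same without ND-RHL library 4, with 5 lower without saline library 1, 2 or 3, and 1 higher without ND-RHL library 2 or 3 or saline library 1, 3 or 4. Cyp1a1, a cytochrome induced through the aryl hydrocarbon receptor and high in lung capillaries, was at 26.9, 30.6, 22.8 and 22.8 FPKM in saline and 7.47, 4.55, 10.4 and 5.96 in ND-RHL, 3.40-fold lower with no overlap (adjusted p = 0.00125), and at 1.24 ± 0.523 in AE-PF (ND-RHL minus AE-PF 1.83, adjusted p = 0.000119). Fmo2, a flavin monooxygenase of lung, fell 1.58-fold, Gsta3, a glutathione transferase, 1.88-fold and Cyp4b1 1.64-fold, while the efflux pump gene Abcg2 rose 1.37-fold. In AE-PF 19 of 23 were lower than in saline (30.2% of all genes).

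The aerocyte and general capillary genes that were called were all lower. Lung capillaries hold aerocytes, which line the thin gas-exchange surface, and general capillary cells, which repair them. Of 13 aerocyte genes 7 fell (10.3% of all genes lower) and none rose, 5 without ND-RHL library 4, and 4 without ND-RHL library 1 or 2 or saline library 3 or 4. Ednrb, the endothelin B receptor, was at 29.0, 30.3, 26.3 and 28.7 FPKM in saline and 21.2, 20.5, 26.6 and 16.8 in ND-RHL, where library 3 reached the saline range. Its call (adjusted p = 0.0353) was lost in 9 of 17 alternative settings, including the replicate block (0.0633) and the fits without ND-RHL library 1 or 2 or any saline library (0.0526 to 0.0932), while AE-PF at 7.29 ± 0.538 was far below ND-RHL (adjusted p = 1.79e-05). Car4, a carbonic anhydrase of aerocytes, was at 73.2, 80.3, 84.5 and 84.4 FPKM in saline and 54.5, 63.2, 75.4 and 46.3 in ND-RHL (adjusted p = 0.046), and lost its call in 11 settings, among them without ND-RHL library 1, 2 or 4 or any saline library (0.0641 to 0.103). Of the general capillary list 3 of 20 fell, near the 10.3% of all genes, with Sox18, an endothelial transcription factor, 1.62-fold lower and Ramp2, the adrenomedullin receptor partner, 1.59-fold lower, the same count without ND-RHL library 4, and 8 fell without ND-RHL library 3. Gja5, connexin 40 of arteries, was at 18.1, 18.7, 18.9 and 16.2 FPKM in saline and 9.01, 10.9, 12.0 and 10.9 in ND-RHL (1.63-fold lower, adjusted p = 0.00148).

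Among resident fibroblast genes 4 of 20 rose and 3 fell, against 15.2% and 10.3% of all genes, the same without ND-RHL library 4, with 2 higher when ND-RHL library 1 or 2 or saline library 1, 3 or 4 was left out, 1 lower without saline library 3 and none lower without saline library 2. Inmt, a methyltransferase of alveolar fibroblasts, was at 922, 962, 1028 and 867 FPKM in saline and 526, 482, 829 and 452 in ND-RHL, 1.70-fold lower (adjusted p = 0.0203), a call lost without ND-RHL library 2 (0.054) and without saline library 2 (0.0558) or 3 (0.0538). Mfap4, a microfibril protein, rose 1.67-fold, from 189 ± 38.5 to 314 ± 53.1 FPKM beside 290.1 ± 81.3 in AE-PF.

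Marker lists of other tissues ranged widely within each group. The 12 adipocyte markers summed to 762, 208, 147 and 572 FPKM in saline and 976, 33.2, 121 and 447 in ND-RHL, and the 12 large airway and basal cell markers to 2307, 643, 281 and 1814 and 2279, 8.87, 138 and 818. Library 1 was the highest of its group for both lists and in both groups. Cfd, adipsin, was at 377, 123, 83.6 and 298 FPKM in saline and 538, 12.1, 59.7 and 174 in ND-RHL, and Myl7, the atrial myosin light chain found in heart and pulmonary vein muscle, at 129, 85.0, 90.3 and 174 and 251, 45.0, 92.0 and 101. Neither was called (adjusted p = 0.529 and 0.815), and no gene of the adipocyte, cardiac muscle, large airway, skeletal muscle, squamous, mesothelial, mast cell or mitochondrially encoded lists was. Ckm, muscle creatine kinase, was at 2.87, 1.95, 7.93 and 3.36 FPKM in saline and 3.49, 0.744, 2.23 and 85.9 in ND-RHL, high in library 4 as for the squamous markers. The sources used here do not give how much tissue beside lung each sample held, and its part in the other lists was not tested.

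**Figure D5:**
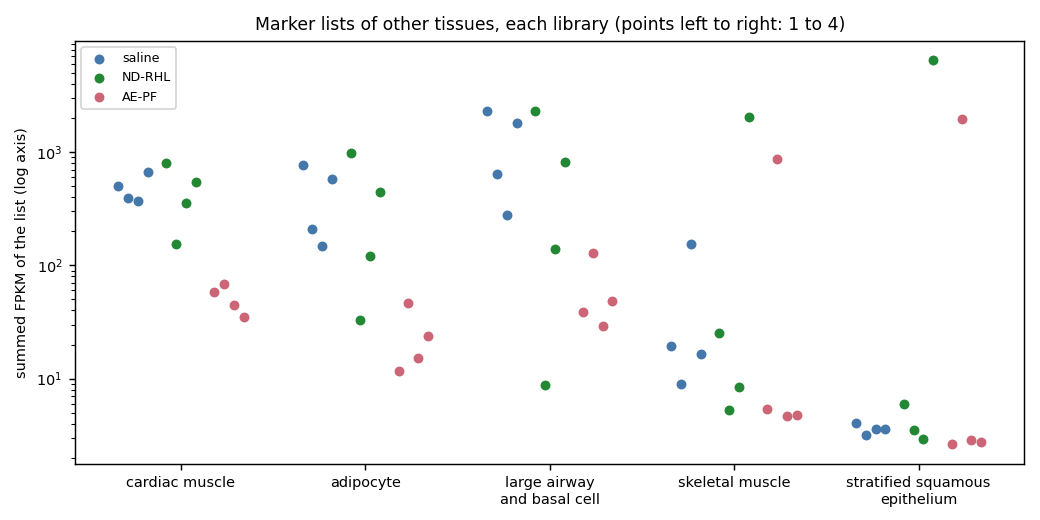
The y axis, on a log scale, is the summed FPKM of the markers of 5 other tissues in each library, coloured by group (points, libraries 1 to 4 from left to right). ND-RHL library 4 stands at 6480.5 for squamous epithelium where the other saline and ND-RHL libraries are at 2.95 to 5.94, AE-PF library 2 stands at 1954 for squamous epithelium and 862 for skeletal muscle, and adipocyte and airway sums vary widely within the saline and ND-RHL groups.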

How the data were processed

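RNA from 12 mouse lung samples was read as poly(A)-selected libraries, 4 each of saline, AE-PF and ND-RHL. The authors deposited 1 table of FPKM values per gene and library; the submitters' processing notes name Trim Galore 0.6.6, STAR 2.7.9a, featureCounts and Subread 2.0.1, DESeq2 1.30.1 and the builds GRCm38 and mm10, with no role or order. FPKM is relative to each library's total, so a few very high genes lower the others. Every gene gave whole fragments from the steps of its FPKM values (100% of 35599 within 1e-05 of a whole number), which gave the depths. Gene positions are those of GENCODE M21 (GRCm38) by gene ID, matched for 34725 genes.

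Genes were kept where 4 or more of the 8 saline and ND-RHL libraries had FPKM 1 or above, and tested on log2(FPKM + 1) with limma 3.58.1 in R 4.3.3 (two-sided, trended variance, Benjamini-Hochberg adjustment, threshold 0.05, 95% intervals). A fit of all 12 libraries gave the AE-PF values. The test was tested on simulated data of this comparison (14379 genes), where it found 86 of 100 genes with a 2-fold and 98 of 100 with a 4-fold change. It also called 17 unchanged genes there, and 0 in a simulation without changes. The changed genes were drawn above a minimum level, and both groups had the same spread. These shares therefore do not carry over to low genes or to unequal spread. Genes named in the text come from the 12 largest called changes in each direction (antibody segments aside), up to 4 called members of each list with the smallest adjusted p, a set chosen for the study's drugs and tissue, and those said to be chosen after their values were seen. Members and lists were chosen with earlier results of these data known.

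The labels number the replicates of each group. Libraries with the same number deviated together from their group means (correlations across genes 0.43, 0.19, 0.14 and 0.20, each above the limit of 0.1), so the numbers were taken to pair the samples, from the data and not from the labels. Some libraries with different numbers correlated as much or more (saline 2 with ND-RHL 3 0.33, saline 3 with ND-RHL 2 0.30), so this is weak evidence of pairing. The fit without the number is the main one, and the fit with the number as a block was run beside it. Alternatives covered other fits, scalings, filters and pseudocounts and each library left out, with the FPKM filter applied again to the libraries that remained. AE-PF library 2 was left out after the data were seen.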

Additional observations from a re-analysis of the deposited data

Results flagged for a closer look

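In 10 of 272 groups of 4 libraries, formed by the 136 genes named in the text and both groups, the highest or lowest library lay further from the other 3 than Dixon's 95% limit allows. Chance alone flags about 1 in 20 groups of normally distributed values. Many of these genes were picked for a small adjusted p or for groups that do not overlap, so that rate need not hold here. Whether 10 of 272 is more than chance gives was therefore not decided. ND-RHL library 4 was flagged for 3 genes. Krt13 was at 2948.5 FPKM there and 0.170 to 0.271 in the other 3 ND-RHL libraries. Ighg2c was at 169.7 FPKM against 15.0 to 18.9, and Fcmr, the IgM receptor, was at 21.5 FPKM against 10.2 to 11.0. The part of the squamous and muscle RNA of this library in its antibody and B cell values was not tested. In ND-RHL library 3 the interferon-stimulated gene Oas1a was at 9.00 FPKM, below the others at 11.5 to 11.7, and in ND-RHL library 2 Klf15 was at 5.88 FPKM, below 9.07 to 9.52. Among saline libraries, Chordc1 was at 26.7 FPKM in library 4 against 21.3 to 21.9, and H2-Eb1 at 152.6 FPKM in library 3 against 126 to 129.7. Bmp2 was at 2.13 FPKM in saline library 3 against 2.82 to 2.97, Cxcl10 at 0.288 FPKM in saline library 2 against 0.573 to 0.625, and Fkbp5 at 2.19 FPKM in saline library 2 against 2.65 to 2.71.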

How the results depend on the processing

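Leaving out 1 library at a time gave 2275 to 3533 called genes, 1425 to 2140 higher, 850 to 1486 lower and 204 to 288 changed at least 2-fold. The smallest counts came without saline library 1 (2425, with 1473 higher and 952 lower) and saline library 2 (2275, with 1425 higher and 850 lower), and 1453 were higher without ND-RHL library 2. An FPKM minimum of 5 gave 1398 higher genes and 162 changed at least 2-fold, with fewer genes tested. The at least 2-fold count, 269, was 564 with limma-voom on recovered fragments and 548 with a pseudocount of 0.1, since a smaller added constant widens the folds of low genes. The replicate number as a block gave 3341 genes, 1983 higher and 1358 lower, and changed the calls of Timp1, Zbtb16, Ednrb, Col1a1 and S100a8 among the genes named in the text and no other call of these.

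Of 116 called genes named in the text, 85 passed in all 17 alternatives in which they were tested, 31 lost the call in 1 or more, none reversed, and 7 that were not called passed in 1 or more. The fit of all 12 libraries alone ended the calls of Cxcl9, Cxcl10, Flt3, Fmo2, Mrc1, Rtkn2, Fcmr, Ighd, Abcg2, Cyp4b1 and the H2 genes, and without AE-PF library 2, a setting chosen after seeing the data, that fit called all of these but Mrc1 and Rtkn2 (3953 called genes against 3323). The secretoglobin Scgb1a1 passed in that fit (0.044), by voom (0.019) and with an FPKM minimum of 5 (0.024). Low genes are limited by depth, since 3 fragments on a 1 kb gene are an FPKM of up to 0.186.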
